A study of Mus musculus with 7 samples.

Results

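The transforming growth factor beta (TGF-beta) genes were followed in cultured epicardial cells with and without the nuclear lamina gene Lmnb1. They comprised the 3 ligand genes Tgfb1, Tgfb2 and Tgfb3, the 3 receptor genes Tgfbr1, Tgfbr2 and Tgfbr3, the 3 latent binding protein genes Ltbp1, Ltbp2 and Ltbp3, and Pmepa1, an inhibitor gene that the pathway itself switches on. These 10 genes were chosen by name among 22738 gene rows, and each name matched a single row. RNA came from explants of E12.5 mouse hearts, in which epicardial cells, the outer layer of the heart, crawled out from ventricles onto gelatin. The heart was taken away after 48 hours and the cells grew for another 72 hours. There were 4 wild type libraries and 3 Lmnb1-/- libraries, all on a mixed C57BL/6;129S4Sv/Jae;129S6/SvEvTac background and without further treatment. The labels name no Cre or transgene, and they do not say whether replicates came from separate embryos or litters. The p-values therefore measure the spread between these libraries, which may be partly technical.

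TGF-beta ligands are secreted as dimers held inactive by their own propeptide, and a latent binding protein tethers this complex to fibrillin and fibronectin in the matrix. Integrins and proteases release the ligand, which joins the type II receptor (Tgfbr2) to the type I receptor (Tgfbr1), and the latter phosphorylates SMAD2 and SMAD3. The type III receptor, betaglycan (Tgfbr3), presents ligand and is needed most for the product of Tgfb2. In the epicardium this pathway is known for driving the loss of epithelial character and the turn towards smooth muscle.

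Promoter sequence was at hand for 7 of the 10 genes in RefSeq (GRCm38.p6), all but Tgfb3, Tgfbr3 and Pmepa1. The 250 bases before the start are shown for Tgfb2, a ligand gene whose libraries did not overlap between genotypes, and for Ltbp1, the most abundant binding protein gene, whose level did not pass the test. Capitals mark an E-box (CACGTG) and a TATA motif (TATAAA) in Tgfb2 (chr1:186705990-186706239, minus strand) and a cyclic AMP response element (TGACGTCA) in Ltbp1 (chr17:75005279-75005528, plus strand), read 5′ to 3′.
Tgfb2: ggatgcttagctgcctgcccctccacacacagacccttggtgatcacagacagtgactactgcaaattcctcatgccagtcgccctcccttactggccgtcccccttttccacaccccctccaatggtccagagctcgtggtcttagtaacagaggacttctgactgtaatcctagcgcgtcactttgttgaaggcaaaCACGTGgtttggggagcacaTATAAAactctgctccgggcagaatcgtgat
Ltbp1: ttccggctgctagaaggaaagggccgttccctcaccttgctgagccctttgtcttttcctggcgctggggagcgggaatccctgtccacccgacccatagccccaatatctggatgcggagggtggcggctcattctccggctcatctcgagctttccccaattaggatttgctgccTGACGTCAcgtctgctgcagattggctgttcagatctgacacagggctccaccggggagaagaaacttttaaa
On either strand, the E-box was in 6.02% of all 32851 promoter windows of this length, the TATA motif in 12.4% and the cyclic AMP response element in 1.55%. The palindromic SMAD site GTCTAGAC was in 0.167% of windows and in none of those of the 7 genes, and the AP-1 motif TGANTCA was in 6.75% and in none of the 7. The short SMAD box CAGAC was in 42.2% of windows. A gene was counted if any of its windows held this box, as for 6 of the 7 genes, all but Tgfb1. The share is per window and the count per gene, and a gene with several windows has more chances of a match. These motifs were picked after the sequences were seen, and a match is a description of letters only.

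Total counts per library ran from 1024898 to 3066936, and 3 counts were worth 0.965 to 3.10 CPM (counts scaled to the library total). Lmnb1 itself ranged over 184 to 239 CPM in wild type libraries against 1.12 to 2.06 CPM in the Lmnb1-/- ones. By the count of Xist alone, wild type replicates 1 and 3 were taken as female and the other 5 libraries as male. All 10 epicardial and mesothelial markers were detected, with a summed level of 1743 to 2428 CPM in wild type against 1384 to 1716 CPM in the Lmnb1-/- explants, and no marker passed the test. The tables carry library numbers that place wild type replicate 1 beside Lmnb1-/- replicate 1 and wild type replicate 4 beside Lmnb1-/- replicates 2 and 3, while the labels give no batch. With bulk RNA, fewer cells of a type and less RNA per cell cannot be told apart.

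Tgfb3 was the only TGF-beta gene called lower in the analysis as reported. It is the ligand gene with the highest level in these cells, and its transcript was 2.12-fold lower in Lmnb1-/- explants. Wild type replicates 1 to 4 had 361, 595, 557 and 665 CPM, and Lmnb1-/- replicates 1 to 3 had 235, 265 and 269 CPM. Every Lmnb1-/- library lay below every wild type library, with wild type replicate 1 the lowest of its group. The means were 544 ± 130 CPM (SD, n = 4) and 257 ± 18.5 CPM (SD, n = 3), a log2 fold change of -1.08 (SE 0.18, 95% interval -1.48 to -0.69). The edgeR quasi-likelihood fit gave it an adjusted p of 0.0315 (Benjamini-Hochberg over all 10775 genes tested). Of the 10 genes, 9 had enough counts to be tested, and 1 was called lower and 0 higher, where 0.343% of all tested genes were called lower and 0.362% higher (0.705% in either direction). The 0 higher stood in DESeq2 and limma voom as well, and no member was higher at an unadjusted p under 0.05.

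**Figure D1:**
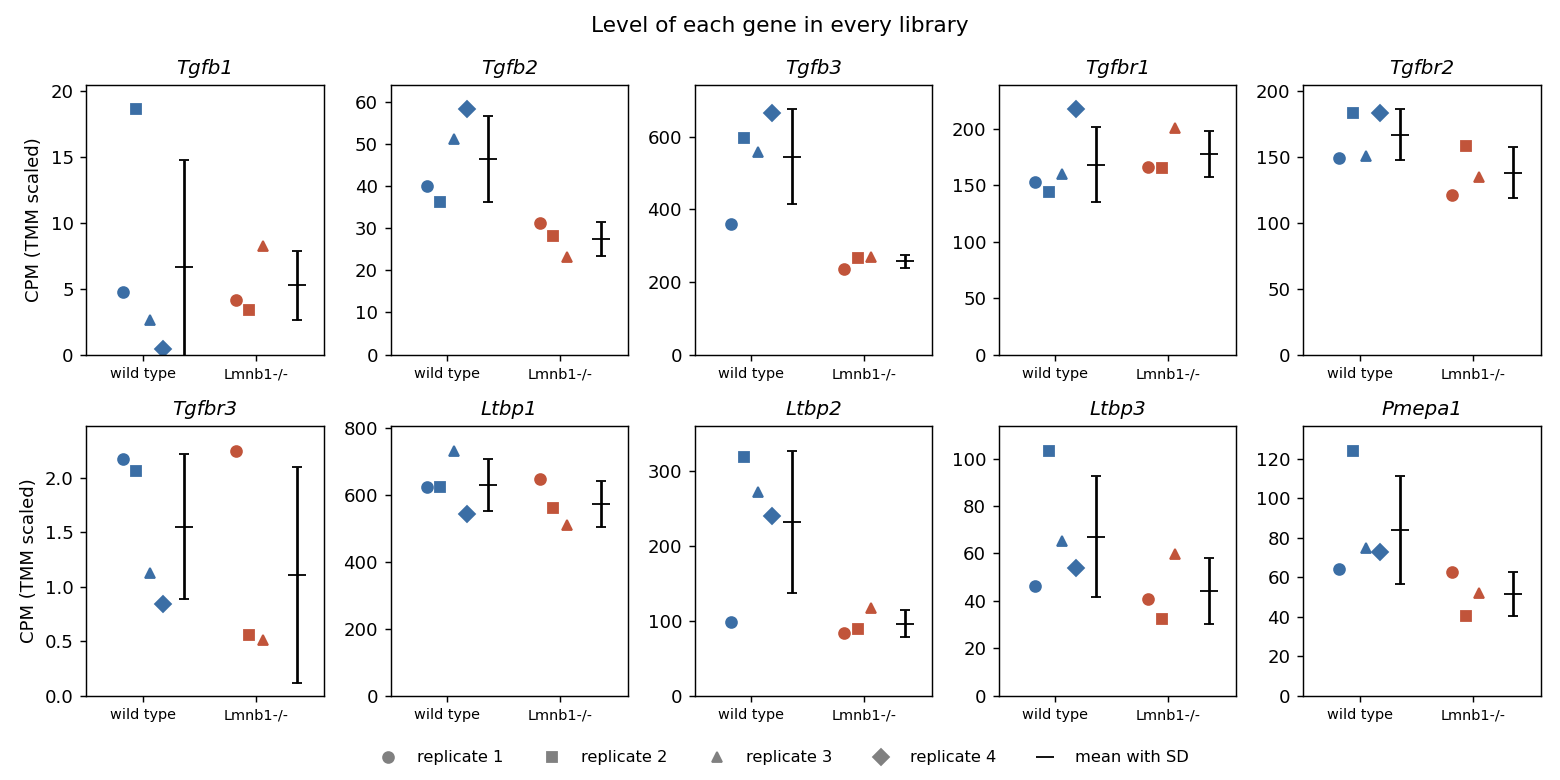
Level of each gene in CPM (vertical axes start at 0), with 1 point per library, shaped by replicate number, blue for wild type and red for Lmnb1-/-; black bars give the mean and SD, cut at 0 for Tgfb1. Tgfb3 lies between 361 and 665 CPM in wild type and between 235 and 269 CPM in Lmnb1-/- libraries, and wild type replicate 1 lies at 98.7 CPM for Ltbp2, among the Lmnb1-/- values.

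The direction of Tgfb3 was shared by all 18 alternative analyses, with log2 fold changes from -1.30 to -0.94, and its call was kept in 13. The call ended without wild type replicate 2 (adjusted p = 0.0782), wild type replicate 3 (0.102), Lmnb1-/- replicate 1 (0.134), Lmnb1-/- replicate 2 (0.158) or Lmnb1-/- replicate 3 (0.103), all by edgeR's test. Among male libraries, wild type stood at 595 and 665 CPM against 235 to 269 CPM, a log2 fold change of -1.30 with an adjusted p of 0.000767 by edgeR. Between the neighbouring library numbers 3 and 4, Tgfb3 went from 361 (wild type) to 235 CPM, a log2 ratio of -0.62, and among numbers 13 to 16 from 665 to a mean of 267 CPM, a log2 ratio of -1.31. Blocked by number group, the log2 fold change was -1.02 (adjusted p = 0.00497 by edgeR). Wild type replicates 2 and 3 (numbers 8 and 9) form a group without any Lmnb1-/- library. A genotype contrast blocked in this way therefore rests on the other libraries only, here and for the genes below.

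Some markers of contractile cells were lower along with Tgfb3. The summed level of 7 smooth muscle markers was 10700 to 11940 CPM in wild type against 8010 to 8783 CPM in the Lmnb1-/- libraries. Most of that sum was Acta2 and Tagln, with wild type means of 5138 and 5302 CPM. Of the 7 markers 3 were called lower (Acta2, Actg2 and Des), beside 0.343% of all tested genes. The other 4 did not pass and none was at 0. Cnn1, Myh11 and Smtn overlapped between the groups, with log2 fold changes of -1.02, -1.75 and -0.31. The call of Acta2 was kept in only 7 of 18 alternatives. Actg2 passed narrowly (adjusted p = 0.0491 by edgeR), and Actg2 and Des were not followed in the alternatives. The 6 pericyte markers summed to 199.5 to 269 CPM against 92.0 to 121 CPM, with 3 of them tested and 2 called lower (Pdgfrb and Cspg4, beside 0.343% of all tested genes), while Rgs5, Kcnj8 and Abcc9 averaged at most 3.57 CPM in either group. Fibroblast markers summed to 3136 to 8092 CPM against 2988 to 3687 CPM, with 0 of 6 called. Endothelial markers were low, at 20.7 to 48.9 against 26.4 to 40.4 CPM in sum, and cardiomyocyte markers summed to 403 to 787 against 446 to 591 CPM with Myh7 at 0. Only 2 of 7 endothelial and 3 of 8 cardiomyocyte markers had enough counts to be tested, and none of these was called. The part of these cell types in the level of Tgfb3 was not tested.

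Tgfb2 encodes the ligand linked to epicardial and valve development. Its level was 40.0, 36.2, 51.2 and 58.2 CPM in wild type replicates 1 to 4 against 31.2, 28.0 and 23.1 CPM in Lmnb1-/- replicates 1 to 3. The groups did not overlap, yet the adjusted p was 0.0912 by edgeR's test, above the threshold of 0.05. The log2 fold change was -0.77 (SE 0.19, 95% interval -1.18 to -0.36). Tgfb2 was called with no count filter (adjusted p = 0.0262 by edgeR) and without wild type replicate 1 (0.0405), and it was below 0 in all 18 alternatives. Ranges that did not overlap, with Lmnb1-/- lower, were found in 3 of the genes (Tgfb2, Tgfb3 and Pmepa1), against 6.92% of all tested genes. No tested member had ranges apart in the higher direction, against 6.36% of all tested genes.

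Tgfb1, the ligand gene of platelets, leukocytes and wound repair, was close to the detection limit. Its raw counts were 11, 18, 7 and 1 in wild type and 13, 6 and 16 in Lmnb1-/- libraries, which is 0.422 to 18.6 CPM and 3.37 to 8.22 CPM. The fitted log2 fold change of 0.02 had an SE of 0.83 and a 95% interval of -1.89 to 1.93 (adjusted p = 0.996 by edgeR), and its sign turned in 9 of 16 alternatives, over a range of -0.52 to 1.08. The wild type libraries differed widely among themselves, the shallowest of them being the highest, and no difference was detectable beyond that spread. The 8 macrophage markers summed to 44.4 to 224 CPM in wild type against 26.1 to 418 CPM in the Lmnb1-/- libraries. The library with the highest Tgfb1 level, wild type replicate 2, had the lowest macrophage sum of its group, 44.4 CPM, whereas Lmnb1-/- replicate 3 had both the highest Tgfb1 level of its group, 8.22 CPM, and the highest macrophage sum of all libraries, 418 CPM. The part of macrophages in the level of Tgfb1 was not tested.

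The receptors of the signalling complex did not pass the test. Tgfbr1, the type I receptor kinase, was at 153, 144, 160 and 217 CPM in wild type against 167, 165 and 201 CPM in the Lmnb1-/- libraries. The values interleave, and the log2 fold change was 0.07 (SE 0.14, 95% interval -0.24 to 0.37, adjusted p = 0.875 by edgeR), turning sign in 4 of 18 alternatives. Tgfbr2, the type II receptor that binds ligand first, was at 149.6, 184, 151 and 183 CPM in wild type against 121, 159 and 135 CPM in the Lmnb1-/- libraries. Here 2 Lmnb1-/- libraries lay below all wild type ones and 1 lay among them. The log2 fold change was -0.27 (SE 0.13, 95% interval -0.55 to 0.0052, adjusted p = 0.378 by edgeR), so a change as large as that of Tgfb3 lies outside this interval.

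Tgfbr3, the betaglycan gene, was barely present and was the gene left out of the test for low counts. Its counts were 5, 2, 3 and 2 in wild type and 7, 1 and 1 in Lmnb1-/- libraries, at most 2.25 CPM in any library. Pooled counts of 9 against 12 gave a ratio of Lmnb1-/- to wild type of 0.910 (exact 95% interval 0.339 to 2.35, for counting error alone).

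Among the latent binding proteins, Ltbp2 had the largest fold change and Ltbp1 the smallest. Ltbp2 encodes a family member that binds fibrillin but not the latent ligand. It was at 98.7, 319, 272 and 239.5 CPM in wild type against 83.9, 89.2 and 117 CPM in the Lmnb1-/- libraries. Wild type replicate 1 lay inside the Lmnb1-/- range, and the other wild type libraries lay above it. The means were 232 ± 94.9 CPM (SD, n = 4) and 96.6 ± 17.6 CPM (SD, n = 3), with a log2 fold change of -1.26 (SE 0.41, 95% interval -2.26 to -0.25) that did not pass (adjusted p = 0.281 by edgeR). Without wild type replicate 1 it was -1.52 with an adjusted p of 0.000437 by edgeR. That was the only call among the 7 analyses that leave out a library. Among male libraries, which also lack wild type replicate 1, the log2 fold change was -1.53 with an adjusted p of 0.00447 by edgeR. With sex as a covariate it was -1.53 and did not pass (adjusted p = 0.251 by edgeR). Blocked by number group it was -0.82 (adjusted p = 0.152 by edgeR). Between library numbers 3 and 4 the log2 ratio was -0.23, from 98.7 to 83.9 CPM, and among numbers 13 to 16 it was -1.22, from 239.5 to a mean of 103 CPM.

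Ltbp1, which binds the latent complexes of all the ligands and places them in the matrix, did not pass the test. Wild type replicates had 625, 625, 734 and 544 CPM and Lmnb1-/- replicates 649, 563 and 510.3 CPM, with overlapping ranges. Its log2 fold change was -0.14 (SE 0.12, 95% interval -0.40 to 0.13, adjusted p = 0.656 by edgeR). Ltbp3, a binding protein known from bone and tooth, was at 46.1, 103, 65.1 and 54.0 CPM against 40.8, 32.5 and 59.6 CPM. Its ranges overlapped, and its log2 fold change of -0.55 did not pass (SE 0.29, 95% interval -1.20 to 0.10, adjusted p = 0.450 by edgeR).

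Pmepa1 encodes a membrane protein that sequesters receptor-activated SMADs and is a standard readout of pathway activity. It was at 63.9, 124, 74.9 and 72.5 CPM in wild type against 62.7, 40.4 and 51.9 CPM in the Lmnb1-/- libraries. The groups lay apart only by the gap between 63.9 and 62.7 CPM, and wild type replicate 2 was the highest library for Pmepa1 as for Ltbp2 and Ltbp3. The log2 fold change was -0.64 (SE 0.23, 95% interval -1.13 to -0.14) and did not pass (adjusted p = 0.255 by edgeR). The pair of neighbouring numbers 3 and 4 differed by a log2 ratio of -0.03 and the numbers 13 to 16 by -0.65. Wild type replicate 2 was also the library with the highest fibroblast marker sum, 8092 CPM against 3136 to 4183 CPM in the other wild type libraries. Most of that sum was Col1a1, at 5024 CPM against 806 to 1241 CPM in the others. Pdgfra, Dcn and Postn, at 225, 113 and 101 CPM, lay within the range of the other wild type libraries. Lum, at 2.07 CPM, was the lowest of the group. The part of fibroblasts in the level of Pmepa1 was not tested.

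Over the 9 tested genes, 7 log2 fold changes were below 0 and 2 above, with a median of -0.55, beside a median of -0.02 over all tested genes, of which 52.4% were below 0. An unadjusted p under 0.05 was reached by 4 genes (Tgfb2, Tgfb3, Ltbp2 and Pmepa1), all lower, and by 13.6% of all tested genes in either direction.

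Per length, Tgfb3 and Ltbp1 led the group. Levels in CPM per kilobase of exon were compared between genes, with exon lengths from GENCODE M21 (GRCm38) since the counted gene models are not given in the sources used here. In wild type, Tgfb3 stood at 161 ± 38.5 CPM per kilobase (SD, n = 4) and Ltbp1 at 91.5 ± 11.3, followed by Ltbp2 (34.3), Tgfbr1 (26.3), Tgfbr2 (20.4), Pmepa1 (18.5), Ltbp3 (12.9), Tgfb2 (8.92), Tgfb1 (3.04) and Tgfbr3 (0.255). Only the first 2 steps of that order, Tgfb3 over Ltbp1 and Ltbp1 over Ltbp2, had ranges that did not overlap, the first by a narrow margin of 107 against 106. In Lmnb1-/- explants Ltbp1 (83.1 ± 10.1, SD, n = 3) and Tgfb3 (75.9 ± 5.47) overlapped. Next came Tgfbr1 (27.7), Tgfbr2 (16.9), Ltbp2 (14.3), Pmepa1 (11.4), Ltbp3 (8.54), Tgfb2 (5.28), Tgfb1 (2.42) and Tgfbr3 (0.182), and Tgfbr2 and Ltbp2, Ltbp2 and Pmepa1, and Pmepa1 and Ltbp3 overlapped as neighbours.

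**Figure D2:**
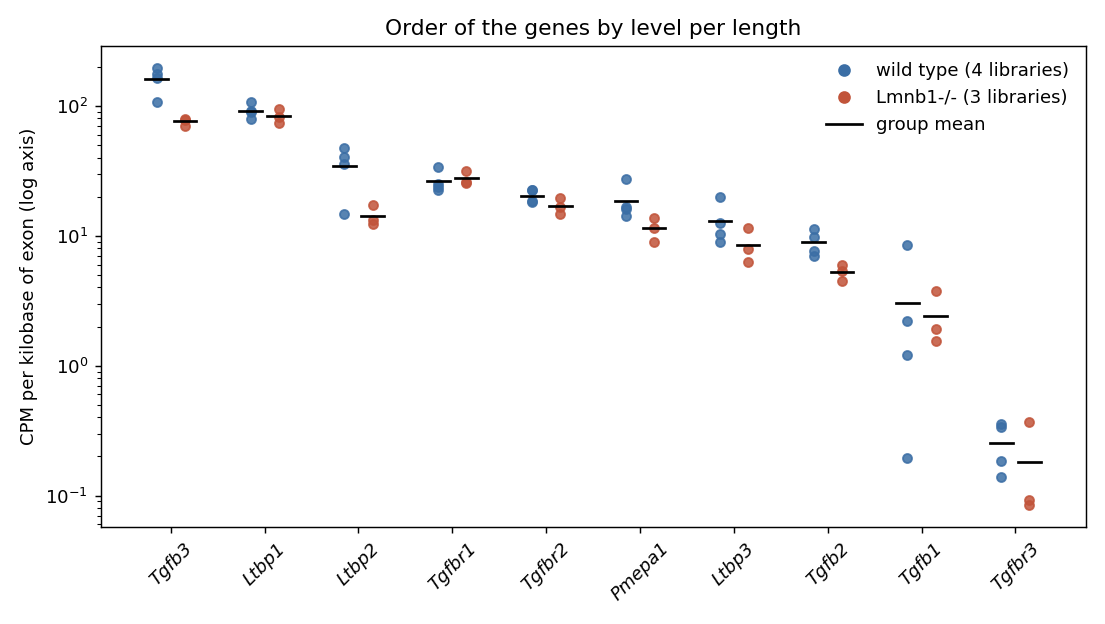
Level of each gene in CPM per kilobase of exon (log axis), ordered by the wild type mean, with 1 point per library (blue wild type, red Lmnb1-/-) and black lines for group means. Tgfb3 leads in wild type at 161 and meets Ltbp1 in Lmnb1-/- explants, at 75.9 against 83.1.

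Tgfb3 made up most of the ligand transcripts in every library. Its share of the 3 ligands per length was 91.5 to 94.5% in wild type and 89.8 to 91.9% in Lmnb1-/- libraries, and Tgfb2 took 3.63 to 6.61% and 5.06 to 7.74%. The summed ligand level was 116.5, 191, 176 and 208 CPM per kilobase in wild type and 77.5, 85.4 and 87.8 in Lmnb1-/- libraries. The summed receptor level was 42.5 to 56.4 against 41.1 to 47.9 CPM per kilobase, overlapping throughout. Relative to Ltbp1, Tgfb3 had a ratio per length of 1.18, 1.94, 1.55 and 2.49 in wild type and 0.740, 0.962 and 1.08 in Lmnb1-/- libraries. Relative to Tgfbr2 the ratio was 5.83 to 8.95 against 4.05 to 4.82. Neither ratio overlapped between the groups, and as they contain Tgfb3 they are no separate finding. Within the latent binding proteins, with Ltbp4 added, Ltbp1 took 56.4 to 79.0% of the level per length in wild type and 70.7 to 81.7% in Lmnb1-/- libraries, and Ltbp2 took 12.7 to 29.4% and 10.8 to 16.5%.

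**Figure D3:**
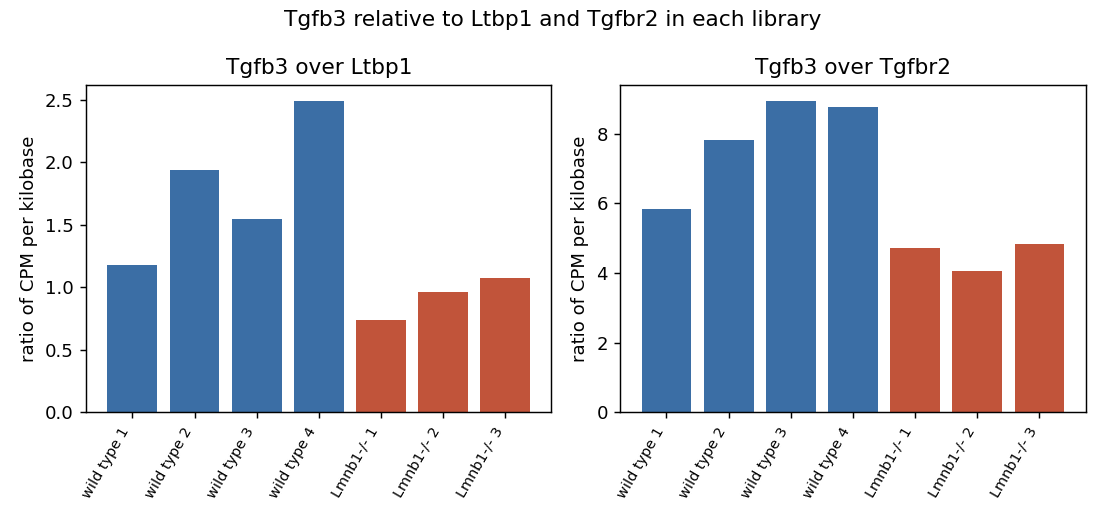
Ratio of Tgfb3 to Ltbp1 (left) and to Tgfbr2 (right) in CPM per kilobase, 1 bar per library from 0, blue for wild type and red for Lmnb1-/-. Wild type bars run from 1.18 to 2.49 and from 5.83 to 8.95, and each stands above every Lmnb1-/- bar, the highest of which are 1.08 and 4.82.

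The genes that store and release the ligands lay mostly below 0 without any call. Of 22 listed genes 20 were tested, 17 below 0 and 3 above (median log2 fold change -0.35), where 52.4% of all tested genes were below 0. In edgeR's test 0 were called, as in DESeq2 and limma voom. At an unadjusted p under 0.05, 4 were lower, where 13.6% of all tested genes passed in either direction. Ranges lay apart in 4 genes that were lower and 0 that were higher, against 6.92% and 6.36% of all tested genes. Itgb8, a subunit of an integrin that activates latent ligand, was at 4.13 to 11.4 CPM in wild type against 1.93 to 3.60 CPM in the Lmnb1-/- libraries (log2 fold change -1.54, SE 0.46, adjusted p = 0.152 by edgeR). These are low raw counts, 19, 4, 13 and 27 in wild type against 6, 4 and 7, and Itgb8 was tested in only 14 alternatives. Fbn1, the fibrillin that holds the latent complex, was at 1024 to 1671 CPM against 916 to 1078 CPM, overlapping through wild type replicate 1 (-0.49, SE 0.15, adjusted p = 0.168 by edgeR). Fn1, fibronectin, was at 3403 to 7722 against 2310 to 3179 CPM (adjusted p = 0.343 by edgeR), and Bgn, the ligand-binding proteoglycan biglycan, at 354 to 932 against 230.2 to 247 CPM (adjusted p = 0.349). Fbn1 was called among male libraries (adjusted p = 0.0378 by edgeR) and without wild type replicate 1 (0.00958), Itgb8 blocked by number group (0.0417) and Bgn without wild type replicate 2 (0.0271). The log2 fold change of Bgn was -1.06 as reported and -0.59 without that library.

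Signal transduction genes lay more often above 0 than below, with a median close to 0. All 25 were tested, 7 below 0 and 18 above, with a median of 0.05, where 52.4% of all tested genes were below 0. Calls by edgeR, DESeq2 or limma voom numbered 0. At an unadjusted p under 0.05, 2 were lower and 2 higher, where 13.6% of all tested genes passed in either direction. Ranges lay apart in 1 gene that was lower and 1 that was higher, against 6.92% and 6.36% of all tested genes. Smad3, a signal-carrying SMAD, was at 51.0 to 74.4 CPM in wild type against 69.0 to 81.4 CPM in the Lmnb1-/- libraries (log2 fold change 0.32, SE 0.14, adjusted p = 0.348 by edgeR). Strap, which steadies the inhibitory SMAD at the receptor, was at 272 to 336 against 341 to 394 CPM, with ranges apart (0.29, SE 0.11, adjusted p = 0.279 by edgeR). Ski, a SMAD corepressor, had a log2 fold change of -0.32 and did not pass. Tab1, a partner of the TAK1 kinase, was at 27.0 to 46.5 against 24.7 to 25.7 CPM, with ranges apart in the lower direction (-0.48, SE 0.19, adjusted p = 0.292 by edgeR).

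Of the pathway's target genes, 1 was called lower by edgeR. Of 36 listed genes other than Pmepa1 and Ltbp2, 35 were tested, 22 below 0 and 13 above, with a median of -0.13. Of all tested genes 52.4% were below 0. The list holds genes that the pathway lowers as well as genes that it raises. The 1 call compares with 0.343% of all tested genes called lower. At an unadjusted p under 0.05, 9 of the 35 were lower and 1 higher, where 13.6% of all tested genes passed in either direction. Ranges lay apart in 6 genes that were lower and 1 that was higher, against 6.92% and 6.36% of all tested genes. Acta2, smooth muscle alpha actin, fell from a range of 4855 to 5421 CPM to one of 3510.1 to 3726 CPM (log2 fold change -0.51, SE 0.10, adjusted p = 0.0367 by edgeR). That call was kept in 7 of 18 alternatives, and 1 of the 7 analyses that leave out a library kept it, the one without wild type replicate 1. It ended with sex as a covariate (adjusted p = 0.0938), among male libraries (0.0547), blocked by number group (0.0565) and with the sum of both count columns (0.0582), while the log2 fold change stayed between -0.53 and -0.45 throughout. Itga5, the fibronectin receptor subunit (-0.47), Tagln, a smooth muscle actin-binding protein (-0.34), and Postn, the matrix protein periostin (-2.02), had ranges apart and adjusted p-values of 0.126, 0.148 and 0.221 by edgeR. DESeq2 called 3 target genes lower, Acta2, Postn (adjusted p = 0.019) and Tagln (0.031), and limma voom called Acta2 alone. With the replicate block, Postn was called too (adjusted p = 0.000199 by edgeR).

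In the activin branch, 8 of 13 genes were tested, 5 below 0 and 3 above, where 52.4% of all tested genes were below 0. Calls by edgeR, DESeq2 or limma voom numbered 0. At an unadjusted p under 0.05, where 13.6% of all tested genes passed in either direction, 1 was higher. This was Fst, the activin antagonist follistatin, at 11.7 to 24.9 CPM in wild type against 22.2 to 35.5 CPM in the Lmnb1-/- libraries (log2 fold change 0.74, SE 0.26, adjusted p = 0.233 by edgeR). Fstl3, Fstl1 and Inhbb, an activin subunit, had log2 fold changes of -0.39, -0.19 and 0.26.

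**Figure D4:**
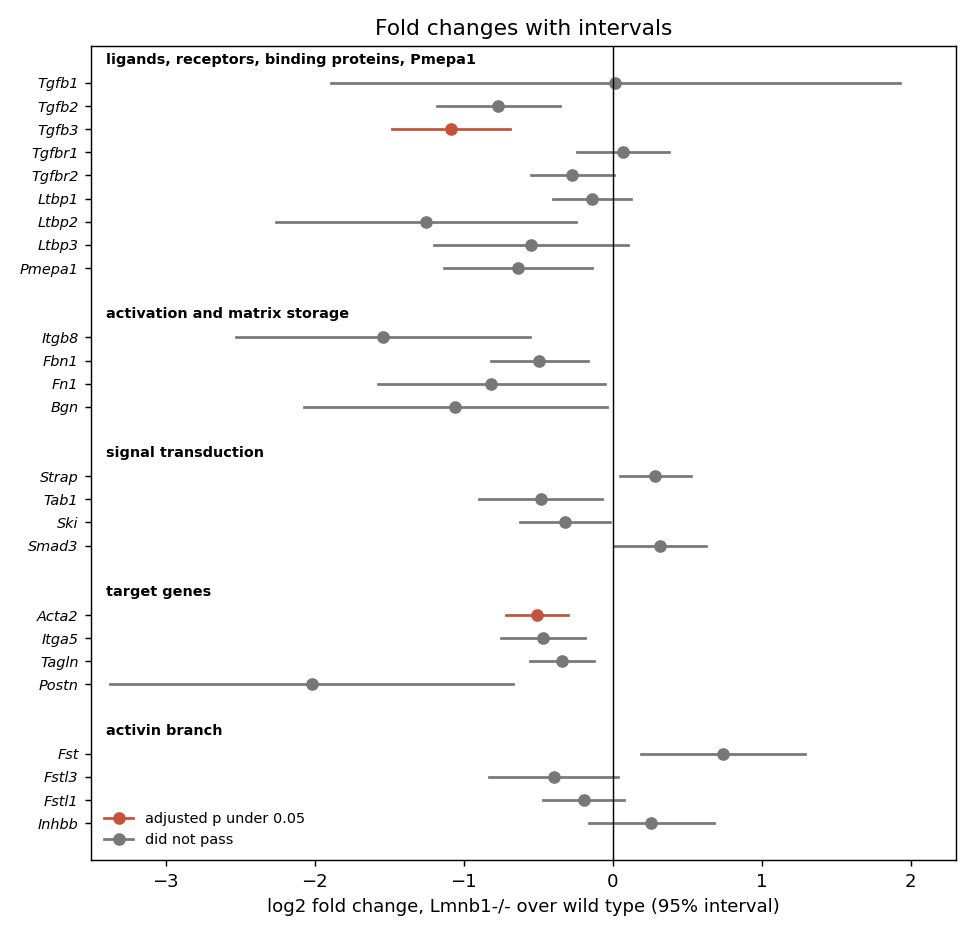
Log2 fold change of Lmnb1-/- over wild type (horizontal axis) with its 95% interval for the 9 tested genes and for 4 genes of smallest p from each pathway list; red marks an adjusted p under 0.05. Tgfb3 at -1.08 and Acta2 at -0.51 are red, and Tgfb1 has the widest interval of the first group, -1.89 to 1.93.

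The genes nearest to Tgfb3 in pattern were Mtus2, Ypel2 and Gpr153. Nearness was the root mean square difference of log2 CPM, centred on each gene's mean, over the 7 libraries, among 7889 genes of sufficient level. It was 0.14 for Mtus2 and Ypel2 and 0.16 for Gpr153, where the median gene was at 0.61. Nearest to Tgfb2 were Ddah2 (0.12), Hsd17b7 (0.13) and Stard10 (0.14), with a median of 0.47. Among pairs of the tested TGF-beta genes, Ltbp3 and Pmepa1 were closest (0.24), and Tgfb3 was closer to Ltbp2 (0.31) than to Tgfb2 (0.33). These distances are a description and carry no test.

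**Figure D5:**
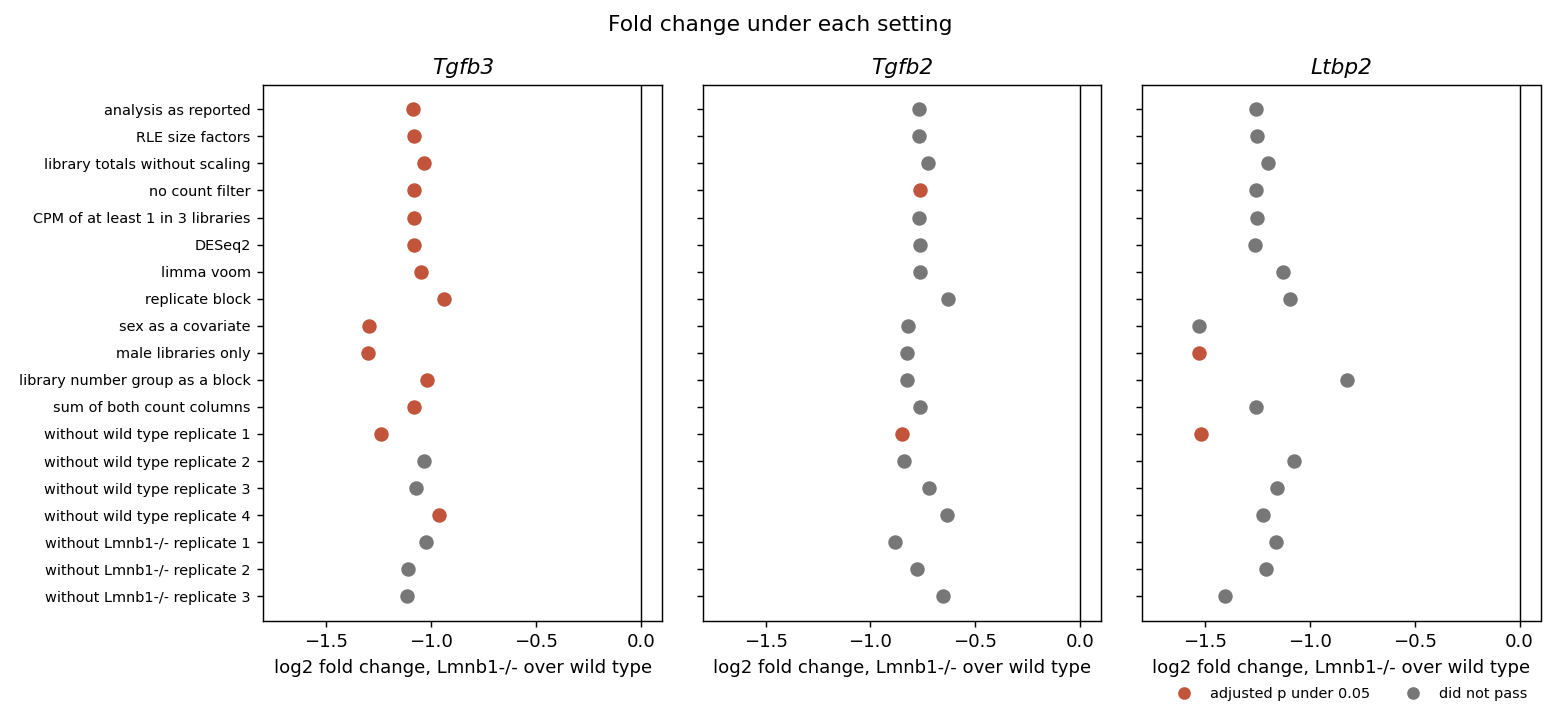
Log2 fold change of Tgfb3, Tgfb2 and Ltbp2 (horizontal axes) in the analysis as reported and in 18 alternatives (rows), red where the adjusted p was under 0.05. All points lie below 0; Tgfb3 is red in the reported analysis and in 13 alternatives, Tgfb2 and Ltbp2 in 2 each.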

How the data were processed

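RNA was extracted with a PicoPure kit and libraries were made with the TruSeq RNA v2 kit, per the labels' protocols. TopHat, edgeR and the mm9 build appear in the submitters' processing notes, with no version or role; annotation and counter are not given in the sources used here. The authors deposited whole-number counts per gene in 2 unnamed columns per library. The first was used; the second held 16.6 to 19.6% of both columns' counts and at most 6 for any of the 10 genes. The kit does not mark strand, so reads of genes overlapping on opposite strands cannot be told apart. Rows sharing a gene name (949) were kept apart.

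Genes were filtered with filterByExpr, scaled by TMM and tested with edgeR 4.0.16 (limma 3.58.1, R 4.3.3), quasi-likelihood with robust dispersion, Lmnb1-/- against wild type, no covariate, Benjamini-Hochberg threshold 0.05. SE is the log2 fold change over the square root of F. CPM are on TMM-adjusted totals; centred log2 CPM used a prior count of 2. On simulated counts for 10647 genes, 20.4% of genes changed 1.5-fold and 76.6% of those changed 2-fold were recovered in this comparison. Alternatives were other scalings and filters, DESeq2 1.42.0, limma voom, blocks, sex, both columns summed and leaving out each library. Named genes are the 10, Lmnb1, 4 of smallest p per pathway list (all that pass, to at most 8) and the 3 nearest in pattern to Tgfb3 and Tgfb2 at a mean log2 CPM of at least 4. Single cell type markers and Cnn1 were named outside this rule, after their values were seen. The genes, lists and alternatives were chosen with earlier results of these data known. GENCODE and RefSeq tables gave lengths and promoters on GRCm38.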

Additional observations from a re-analysis of the deposited data

Results flagged for a closer look

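In 2 of the 26 TGF-beta and pathway genes followed, 1 wild type library lay far from the other 3; chance alone flags about 1 in 20 groups. Bgn was at 932 CPM in wild type replicate 2, where the other wild type libraries had 354 to 375 CPM. Postn was at 225 CPM in wild type replicate 3, against 76.6 to 101 CPM in the others. The Lmnb1-/- libraries lay below every wild type library for both genes, at 230.2 to 247 CPM for Bgn and 19.1 to 47.3 CPM for Postn.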

How the results depend on the processing

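The count of TGF-beta genes called lower, 1 in the analysis as reported, was 2 with no count filter (Tgfb2 and Tgfb3), 2 among male libraries (Tgfb3 and Ltbp2), 3 without wild type replicate 1, and 0 to 3 over the analyses that leave out a library; it was 0 called higher in all 18. Of the pathway genes 1 was lower, against 3 with DESeq2, 2 with the replicate block (Postn and Cnn1), 0 with sex as a covariate, 3 with the library number group as a block, 0 with both columns summed, and 0 to 4 on leaving out a library. Over all genes the 76 calls became 180 with no count filter, 176 with DESeq2, 46 with limma voom, 38 with sex as a covariate, 44 with both columns summed, and 3 to 279 on leaving out a library. Library totals without scaling split 73 calls into 47 higher and 26 lower, against 39 and 37. Same-numbered replicates did not consistently deviate together (correlations of 0.26, -0.16 and -0.09 for numbers 1 to 3), so the replicate block pairs by number only. Under it Tgfb3 was at -0.94 and 77 genes were called. Wild type replicate 4 had correlations of 0.19 and 0.33 with Lmnb1-/- replicates 2 and 3, its neighbours in library number, and -0.45 with replicate 1. As the values were centred within each genotype, that negative value follows from the 2 positive ones. The source of these correlations was not tested.

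Signs turned for 3 genes with a reported log2 fold change near 0. Tgfb1 was at -0.0023 with no count filter, -0.0020 with a CPM of at least 1 in 3 libraries, -0.19 with DESeq2, -0.33 with the replicate block, -0.49 with sex as a covariate, -0.52 among male libraries, and -0.42 to 0.20 on leaving out a library, in the 5 of 7 such analyses that still tested it, but at 0.83 with limma voom and 1.08 blocked by number group, against 0.02 as reported. Tgfbr1 was at -0.049 with sex as a covariate, -0.056 among male libraries, -0.091 blocked by number group and -0.024 (without Lmnb1-/- replicate 3) to 0.23 on leaving out a library. Ltbp1 was at 0.013 blocked by number group. The cause was not tested. Tgfb1 and Tgfbr3 rest on 72 and 21 counts over all libraries, and Tgfb1 also on wild type libraries that range from 0.422 to 18.6 CPM.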
